A study of Homo sapiens with 6 samples.

Results

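Integrins are the receptors by which a cell holds on to the extracellular matrix, and the genes described here encode their alpha and beta subunits in the established human line H226, derived from a squamous carcinoma of the lung. The members were taken from a list of gene names, drawn up with earlier results of these data known: ITGA2, ITGA3, ITGA5, ITGA6, ITGAV, ITGB1, ITGB3, ITGB4, ITGB5 and ITGB8. Of these 10, 9 had a row among the 17222 gene names of the count table and 9 passed the filter on low counts, and ITGB3 was not analysed here. RNA of H226 cells, reverse transcribed from oligo-dT, was sequenced 48 h after transient transfection with ASO_CTRL, a control antisense oligonucleotide, or with ASO_LINC, the oligonucleotide ASO_LINC#3 directed against the long non-coding RNA SWINGN, in 3 libraries per condition. All 6 libraries came from the same otherwise unmodified line, and the study's methods paragraph on RNA-seq names BJ fibroblasts where the sample labels name H226. A single targeting oligonucleotide was used. The study's reporting summary gives biological triplicates for its experiments in general, and the labels number these libraries without saying what a replicate is, so the p-values measure the spread between these libraries. Since SWINGN was not analysed here, how far the oligonucleotide depleted it in these libraries was not checked. The study reports RT-qPCR of H226 cells depleted of SWINGN with antisense oligonucleotides.

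Reads counted on genes ranged from 5738340 to 10546786 per ASO_CTRL library and from 3686828 to 6780016 per ASO_LINC library, the lowest being ASO_LINC replicate 3. After TMM scaling, 14660 genes were tested with edgeR's quasi-likelihood F-test, and calls needed a Benjamini-Hochberg adjusted p-value under 0.01 together with a log2 fold change of more than 0.5 either way. By this rule 7.54% of the tested genes were called, 4.91% as higher and 2.63% as lower in ASO_LINC, and 49.7% of the tested genes had a positive log2 fold change. Levels are given as CPM, counts relative to the TMM-scaled library size. All 8 mesothelial and simple-epithelial markers listed for the check of the cell type were present, at 29.1 to 5090 CPM in ASO_CTRL, with summed levels of 12400 to 13500 CPM in ASO_CTRL and 7310 to 12800 CPM in ASO_LINC. One of them was called, CALB2, which encodes calretinin and fell from 601 ± 91.7 to 154 ± 47.6 CPM (SD, n = 3, adjusted p = 0.000195 from edgeR). Of the 6 squamous markers 2 had a row: KRT5, a basal keratin, at 103 ± 12.3 CPM in ASO_CTRL and 69 ± 7.87 CPM in ASO_LINC (SD, n = 3), and KRT6A, a keratin of activated epidermis, with 0, 0 and 1 reads in ASO_CTRL and 14, 5 and 4 in ASO_LINC, too few to be tested. For leukocytes 1 of 5 markers had a row, CD14, at 1.48 to 2.10 CPM in ASO_CTRL and 0.735 to 2.17 CPM in ASO_LINC. For endothelial cells 1 of 5 had a row, KDR, a receptor of vascular endothelial growth factor, which fell from 7.44 ± 0.492 to 2.95 ± 0.722 CPM (SD, n = 3, adjusted p = 0.00571 from edgeR). In RNA from whole cultures of this line, fewer H226 cells with a given mRNA and less of that mRNA per cell cannot be told apart.

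Each integrin is a pair of 1 alpha and 1 beta subunit that leave the endoplasmic reticulum together, so that a subunit without a partner does not reach the surface. The alpha subunit largely sets the ligand. ITGB1 pairs with ITGA2 to bind collagen, with ITGA3 or ITGA6 to bind laminin, and with ITGA5 or ITGAV to bind proteins with the arginine-glycine-aspartate (RGD) sequence, such as fibronectin. ITGB4 pairs only with ITGA6, and this dimer anchors epithelial cells to laminin through hemidesmosomes, whereas ITGB5 and ITGB8 pair only with ITGAV. The members thus form a collagen/laminin-binding class (ITGA2, ITGA3, ITGA6 and ITGB4), an RGD-binding class (ITGA5, ITGAV, ITGB3, ITGB5 and ITGB8) and the shared partner ITGB1.

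The mRNAs of 3 alpha subunits rose in ASO_LINC, ITGA2, ITGA6 and ITGA5, and no beta subunit mRNA passed the test in either direction. Of the 9 members tested, 3 were called higher, against 4.91% of all tested genes, 0 were called lower, against 2.63%, and 6 were not called. At an unadjusted p-value below 0.05 in edgeR there were 7 members higher and 1 lower. The share of all tested genes at that looser cut was not computed, so these counts cannot be set against 4.91% and 2.63%. DESeq2 and limma-voom each called 3 members higher and 0 lower. For 7 members the libraries of the conditions did not overlap in CPM, 6 higher and 1 lower, against 36.1% of all tested genes.

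**Figure D1:**
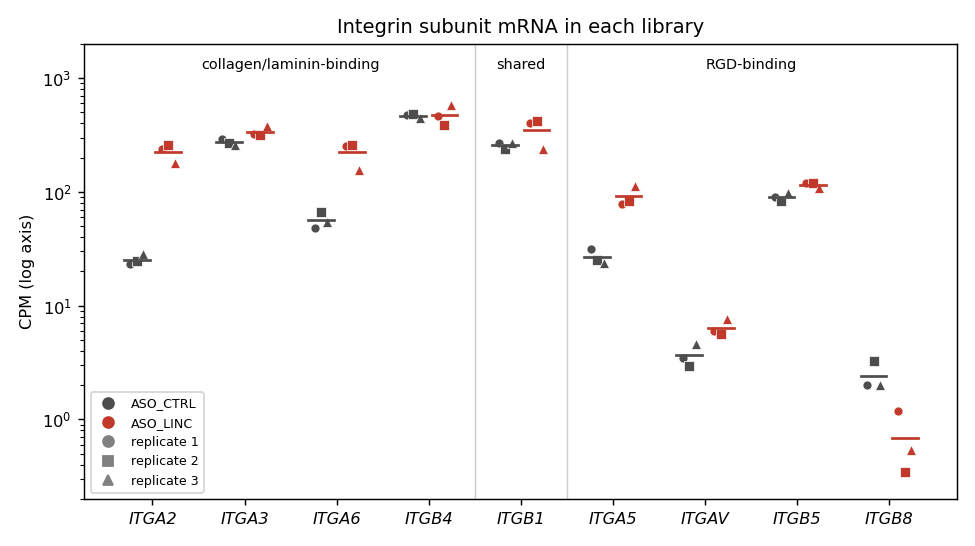
CPM of each integrin subunit (log axis) in the 3 ASO_CTRL (grey) and 3 ASO_LINC (red) libraries, with a symbol for each replicate number and a line at the mean of each condition. The conditions are far apart for ITGA2, ITGA6 and ITGA5, and overlap for ITGB4 and ITGB1.

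The promoters of the 3 genes that rose are shown because these were the members called higher, and whether they share regulation was not tested. Each is the stretch of 250 bases that precedes a transcription start in RefSeq (GRCh38.p14), written 5′ to 3′ on the gene's strand. Capitals mark matches, on either strand, to 5 motifs: AP-1 (TGANTCA), the core of the hypoxia response element (ACGTG), TEAD (GGAATG), the GC box (GGGCGG) and the cAMP response element (TGACGTCA). RefSeq windows were at hand for 7 of the 10 members, with 12 windows in all.
ITGA2, chr5:52989102-52989351, + strand: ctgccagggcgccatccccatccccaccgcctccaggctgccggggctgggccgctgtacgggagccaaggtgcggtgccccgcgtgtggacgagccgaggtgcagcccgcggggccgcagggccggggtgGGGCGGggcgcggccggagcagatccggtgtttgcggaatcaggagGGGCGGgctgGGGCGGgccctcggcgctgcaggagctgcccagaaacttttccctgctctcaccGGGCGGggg
ITGA6, chr2:172427086-172427335, + strand: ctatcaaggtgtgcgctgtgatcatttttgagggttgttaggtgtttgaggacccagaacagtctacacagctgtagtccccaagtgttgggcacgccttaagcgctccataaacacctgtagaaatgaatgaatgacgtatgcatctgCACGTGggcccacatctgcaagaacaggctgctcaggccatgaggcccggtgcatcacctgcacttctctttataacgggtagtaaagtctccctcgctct
ITGA5, chr12:54419267-54419516, − strand: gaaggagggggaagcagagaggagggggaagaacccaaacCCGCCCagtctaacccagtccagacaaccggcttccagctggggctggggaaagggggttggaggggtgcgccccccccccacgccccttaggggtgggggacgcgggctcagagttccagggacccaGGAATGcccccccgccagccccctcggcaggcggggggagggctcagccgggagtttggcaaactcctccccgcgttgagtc
The capitals differ between the 3 windows. ITGA2 has 4 GC boxes, ITGA5 has 1 GC box and 1 TEAD motif, and the ITGA6 window has a single place where the letters ACGTG read on both strands. A further ITGA6 window, which begins at the first start and is not printed, has 3 GC boxes and 1 match to ACGTG. Among 35116 windows of the same length over all genes, 42.6% held a GC box, 18.5% ACGTG, 11.9% the TEAD letters, 6.57% the AP-1 letters and 1.65% the cAMP response element. No window of any member held the AP-1 letters or the cAMP response element. Of the members that were not called, ITGB1 had a window with 3 GC boxes and 1 TEAD motif, and ITGB8 had one with 2 GC boxes, so the GC box was not restricted to the members that rose.

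ITGA2, the alpha subunit of the collagen receptor alpha2beta1, changed most among the members. Its gene lies on chromosome 5 from 52285170 to 52390609 (GRCh37, + strand). It was measured at 23.4, 24.6 and 28.3 CPM in ASO_CTRL replicates 1, 2 and 3, and at 240, 257 and 180 CPM in ASO_LINC replicates 1, 2 and 3. Every ASO_LINC library was far above every ASO_CTRL library, and replicate 3 was the lowest of the ASO_LINC libraries. The mean rose from 25.5 ± 2.56 to 226 ± 40.1 CPM (SD, n = 3), a log2 fold change of 3.14 with a standard error of 0.17 (adjusted p = 3.78e-06 from edgeR). By fold change ITGA2 was at rank 33 of the 720 genes called higher, and by p-value at rank 8 of all called genes. Leaving out any 1 library kept its log2 fold change between 3.04 and 3.28, with an adjusted p of at most 0.000161 from edgeR.

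ITGA6, the laminin-binding alpha subunit of both alpha6beta1 and the hemidesmosomal alpha6beta4, rose as well. The gene lies on chromosome 2 from 173292082 to 173371187 (GRCh37, + strand). Its CPM were 48.1, 66.8 and 54.7 in ASO_CTRL and 255, 258 and 157 in ASO_LINC. The conditions did not overlap, and ASO_LINC replicates 1 and 2 were close to each other with replicate 3 below them. The mean went from 56.5 ± 9.48 to 224 ± 57.4 CPM (SD, n = 3), a log2 fold change of 1.99 with a standard error of 0.21 (adjusted p = 0.000172 from edgeR). With 1 library left out it was 1.88 to 2.19, called in 6 of 6 fits.

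ITGA5, the alpha subunit of the fibronectin receptor alpha5beta1, was the only RGD-binding member called by edgeR. It lies on chromosome 12 from 54789045 to 54813050 (GRCh37, − strand). The ASO_CTRL libraries had 31.8, 25.3 and 23.7 CPM and the ASO_LINC libraries 78, 84 and 113 CPM. Here ASO_LINC replicate 3 was the highest of its condition, the opposite of its place for ITGA2 and ITGA6. From 26.9 ± 4.3 CPM the mean rose to 91.5 ± 18.4 CPM (SD, n = 3), a log2 fold change of 1.76 with a standard error of 0.18 (adjusted p = 0.000167 from edgeR). It stayed between 1.59 and 1.90 with 1 library left out and was called in 6 of 6 fits.

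ITGA3, the alpha subunit of the laminin receptor alpha3beta1, was the most abundant alpha subunit per length in both conditions and did not pass the test. The gene lies on chromosome 17 from 48133332 to 48167845 (GRCh37, + strand). Its CPM were 291, 269 and 259 in ASO_CTRL and 324, 316 and 380 in ASO_LINC, so that each ASO_LINC library was above each ASO_CTRL library. The means were 273 ± 16.5 and 340 ± 34.9 CPM (SD, n = 3), a log2 fold change of 0.32 with a standard error of 0.13 (adjusted p = 0.106 from edgeR). This difference is small beside those of ITGA2 and ITGA6.

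ITGB4, the beta subunit that carries alpha6beta4 into hemidesmosomes, had almost the same mean level in both conditions. It lies on chromosome 17 from 73717408 to 73753899 (GRCh37, + strand). Its CPM were 478, 480 and 450 in ASO_CTRL and 463, 389 and 576 in ASO_LINC. The ASO_LINC libraries lay on both sides of the ASO_CTRL libraries and spread more widely. The means were 469 ± 16.7 and 476 ± 94.5 CPM (SD, n = 3), with a log2 fold change of 0.02 with a standard error of 0.15 (adjusted p = 0.945 from edgeR). The single ASO_LINC libraries differed from the mean of ASO_CTRL by −0.02, −0.27 and 0.30 on the log2 scale, so no direction could be given.

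ITGB1, the beta subunit shared by the collagen, laminin and fibronectin receptors, lies on chromosome 10 from 33176201 to 33294720 (GRCh37, − strand). Its CPM were 269, 238 and 270 in ASO_CTRL and 404, 418 and 239 in ASO_LINC. ASO_LINC replicates 1 and 2 were above every ASO_CTRL library, and replicate 3 lay within the ASO_CTRL range. The means were 259 ± 18.2 and 354 ± 99.6 CPM (SD, n = 3), a log2 fold change of 0.45 with a standard error of 0.19 (adjusted p = 0.132 from edgeR). Without ASO_LINC replicate 3 the value was 0.67 and passed the test (adjusted p = 0.000665 from edgeR), so this call turned on 1 library. A pseudogene, ITGB1P1, has a row of its own in the table, and how reads that match both were counted is not given in the sources used here.

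ITGAV, the alpha subunit of the vitronectin receptors and of the integrins that release active TGF-beta, was measured at low counts. It lies on chromosome 2 from 187454737 to 187545628 (GRCh37, + strand). The ASO_CTRL libraries held 26, 17 and 48 reads of it and the ASO_LINC libraries 41, 33 and 28, or 3.5, 2.93 and 4.58 CPM against 6.03, 5.65 and 7.59 CPM. The ASO_LINC libraries were all above the ASO_CTRL libraries once scaled to depth. The means were 3.67 ± 0.839 and 6.42 ± 1.03 CPM (SD, n = 3), a log2 fold change of 0.75 with a standard error of 0.26 (adjusted p = 0.0652 from edgeR), which did not pass the threshold. From the summed reads, the ratio of ASO_LINC to ASO_CTRL was 1.63 with an exact 95% interval of 1.21 to 2.18, which covers counting error only.

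ITGB5, a beta subunit that pairs with ITGAV to bind vitronectin, lies on chromosome 3 from 124480795 to 124620265 (GRCh37, − strand). Its CPM were 91, 83.5 and 98.2 in ASO_CTRL and 119, 121 and 108 in ASO_LINC. The conditions did not overlap, and the gap between the highest ASO_CTRL and the lowest ASO_LINC library was narrow. The means were 90.9 ± 7.35 and 116 ± 6.66 CPM (SD, n = 3), a log2 fold change of 0.35 with a standard error of 0.13 (adjusted p = 0.0792 from edgeR).

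ITGB8, the beta subunit of the TGF-beta-activating dimer alphavbeta8, was the only member that was lower in every ASO_LINC library. It lies on chromosome 7 from 20370325 to 20455377 (GRCh37, + strand). Its reads numbered 15, 19 and 21 in ASO_CTRL and 8, 2 and 2 in ASO_LINC, or 2.02, 3.27 and 2.0 CPM against 1.18, 0.342 and 0.542 CPM. The means were 2.43 ± 0.726 and 0.687 ± 0.435 CPM (SD, n = 3), a log2 fold change of −1.67 with a standard error of 0.47 (adjusted p = 0.0325 from edgeR), which missed the threshold. The summed reads gave a ratio of ASO_LINC to ASO_CTRL of 0.317, with an exact 95% interval of 0.154 to 0.599 that covers counting error only. Because 2 of its ASO_LINC libraries held 2 reads each, it was left untested under a filter of at least 10 counts in every library.

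**Figure D2:**
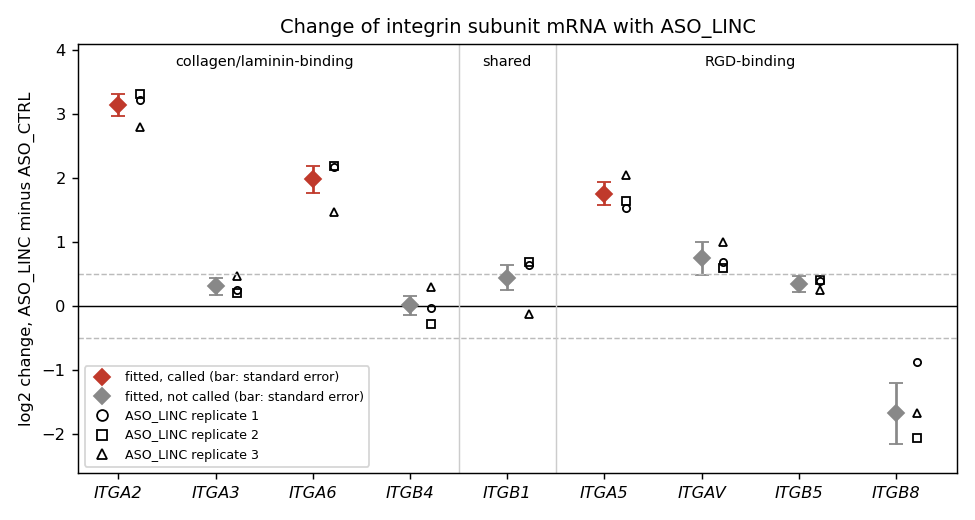
Log2 change of each integrin subunit, ASO_LINC minus ASO_CTRL: diamonds are fitted values with their standard errors (red where called), open symbols are the 3 single ASO_LINC libraries against the mean of ASO_CTRL, and dashed lines mark the bound of 0.5 in either direction. The called members ITGA2, ITGA6 and ITGA5 lie well above the bound in all 3 libraries, and ITGB1 crosses 0 in replicate 3.

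The collagen/laminin-binding subunits were set beside the RGD-binding ones as a description, because so few genes carry no test. Of all tested genes 4.91% were called higher, and classes of 4 genes are too small to compare by such counts. Of the 4 collagen/laminin-binding members 2 were called higher, and their median log2 fold change was 1.15, with a range of 0.02 to 3.14. In the RGD-binding class 1 of the 4 members tested was called higher, and the median was 0.55, with a range of −1.67 to 1.76. Over the single ASO_LINC replicates 1, 2 and 3 the median was 1.22, 1.21 and 0.98 in the collagen/laminin-binding class and 0.54, 0.50 and 0.64 in the RGD-binding class. The former was thus above the latter in each library, but the ranges of the classes overlap, and each holds 1 subunit with a large increase or more beside others that were not called. Within the collagen/laminin-binding class the split ran between ITGA2 and ITGA6, which rose, and ITGA3 and ITGB4, which were not called.

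The subunits were then compared with each other within a library by dividing their counts by transcript length (counts per kb). On this scale the levels in ASO_CTRL were 55.8 CPM per kb for ITGA3, 9.72 for ITGA6, 6.33 for ITGA5, 3.25 for ITGA2 and 0.521 for ITGAV. In ASO_LINC the levels were 69.6 CPM per kb for ITGA3, 38.4 for ITGA6, 28.8 for ITGA2, 21.5 for ITGA5 and 0.912 for ITGAV. Among these 5 members ITGA3 and ITGA6 kept the first and second places in every library. ITGAE, an alpha subunit outside the members, was at 17.2 CPM per kb in ASO_CTRL and 12.2 in ASO_LINC, above ITGA6 in the former and below it in the latter. ITGA2 was below ITGA5 in all 3 ASO_CTRL libraries and above it in ASO_LINC replicates 1 and 2 but not in replicate 3, so ITGA2 and ITGA5 could not be put in order in ASO_LINC. Among the beta members ITGB4 (79.6 CPM per kb) and ITGB1 (69.3) led in ASO_CTRL, followed by ITGB5 (20.5), and in ASO_LINC these were at 80.7, 94.7 and 26.1 CPM per kb. ITGB4 was above ITGB1 in each ASO_CTRL library, while in ASO_LINC it was below ITGB1 in replicates 1 and 2 and above it in replicate 3. ITGB8 held 0.161 ± 0.053% of the counts per kb of the 4 beta members measured in ASO_CTRL and 0.0375 ± 0.0218% in ASO_LINC (SD, n = 3).

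As a share of the counts per kb of the 5 alpha members measured, ITGA3 took 73.8 ± 1.62% in ASO_CTRL and 43.8 ± 5.5% in ASO_LINC (SD, n = 3). ITGA2 made up 3.79, 4.12 and 5.01% of the same sum in ASO_CTRL and 19.1, 20.2 and 14.8% in ASO_LINC. The share of ITGA6 was 10.5, 15.1 and 13% in ASO_CTRL against 27.4, 27.3 and 17.4% in ASO_LINC, and that of ITGA5 9.50, 7.82 and 7.72% against 11.5, 12.2 and 17%. For these 3 subunits every ASO_LINC library had a larger share than every ASO_CTRL library. ITGAV stayed under 1% on average, at 0.693 ± 0.186% and 0.575 ± 0.106% (SD, n = 3). A lower share of ITGA3 does not mean a lower level, since its own CPM were not lower in any ASO_LINC library. Of the counts per kb of the 4 beta members measured, ITGB4 took 46.9 ± 2.47% in ASO_CTRL and 40.5 ± 10.7% in ASO_LINC, ITGB1 40.8 ± 1.83% and 46.5 ± 10.7%, and ITGB5 12.1 ± 0.773% and 13 ± 0.405% (SD, n = 3), so the make-up of the beta members differed by less than the spread of the ASO_LINC libraries for ITGB4 and ITGB1. First strands were primed from the poly(A) tail, so counts need not scale fully with transcript length.

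**Figure D3:**
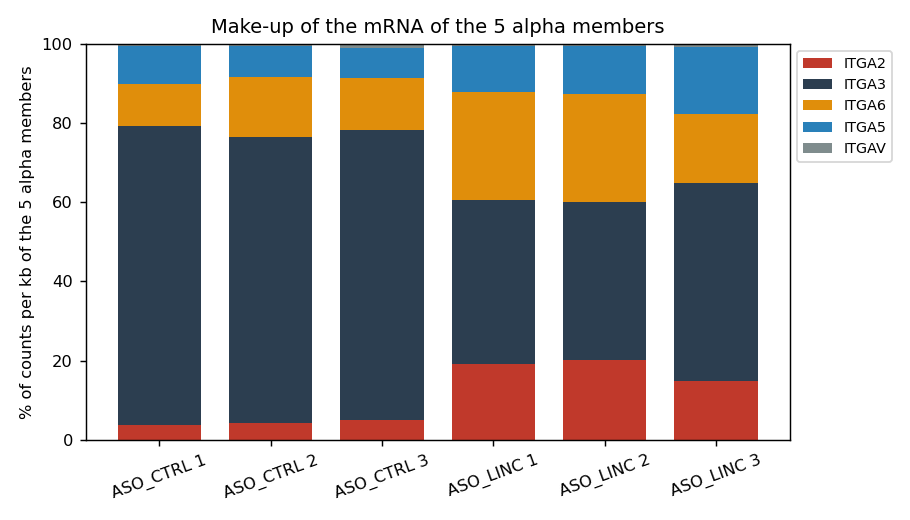
Share of each alpha member in the counts per kb of the 5 alpha members measured, in percent, for each library. ITGA3 takes 73.8% on average in ASO_CTRL and 43.8% in ASO_LINC, where ITGA2, ITGA6 and ITGA5 take more in all 3 libraries.

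Ratios between subunits that can pair were computed within each library, where the scaling of the library drops out. For the collagen receptor, the log2 ratio of ITGA2 to ITGB1 counts was −3.35 ± 0.15 in ASO_CTRL and −0.62 ± 0.19 in ASO_LINC (SD, n = 3), a difference of 2.72 (two-sided exact permutation p = 0.1, Benjamini-Hochberg adjusted p = 0.14 over 7 ratios). With 3 libraries against 3 this test cannot give a p-value below 0.1. The hemidesmosomal ratio of ITGA6 to ITGB4 was −3.31, −2.84 and −3.04 in ASO_CTRL and −0.86, −0.59 and −1.87 in ASO_LINC, a difference of 1.96 that also had the smallest p the design allows (exact permutation p = 0.1, adjusted p = 0.14). ITGA6 counts thus came closer to those of ITGB4 in all 3 ASO_LINC libraries.

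The ratio of ITGA5 to ITGB1 rose by 1.35, from −3.27 ± 0.22 to −1.92 ± 0.73 (SD, n = 3, exact permutation p = 0.1, adjusted p = 0.14), with the conditions apart. ITGA3 to ITGB1, the laminin receptor pair, was 0.08 ± 0.13 in ASO_CTRL and −0.02 ± 0.60 in ASO_LINC (SD, n = 3, exact permutation p = 0.9, adjusted p = 0.9), and its difference of −0.09 became 0.06 without ASO_LINC replicate 1 and 0.10 without replicate 2. For ITGAV the ratio to ITGB1 differed by 0.41 (exact permutation p = 0.5, adjusted p = 0.583), that to ITGB5 by 0.46 and that to ITGB8 by 2.58 (exact permutation p = 0.1 and adjusted p = 0.14 for each). The last rests on the few reads of ITGB8 and had a mean of 0.60 ± 0.68 in ASO_CTRL and 3.18 ± 0.78 in ASO_LINC (SD, n = 3). These ratios compare mRNA only, and the protein and the assembled dimers were not measured.

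**Figure D4:**
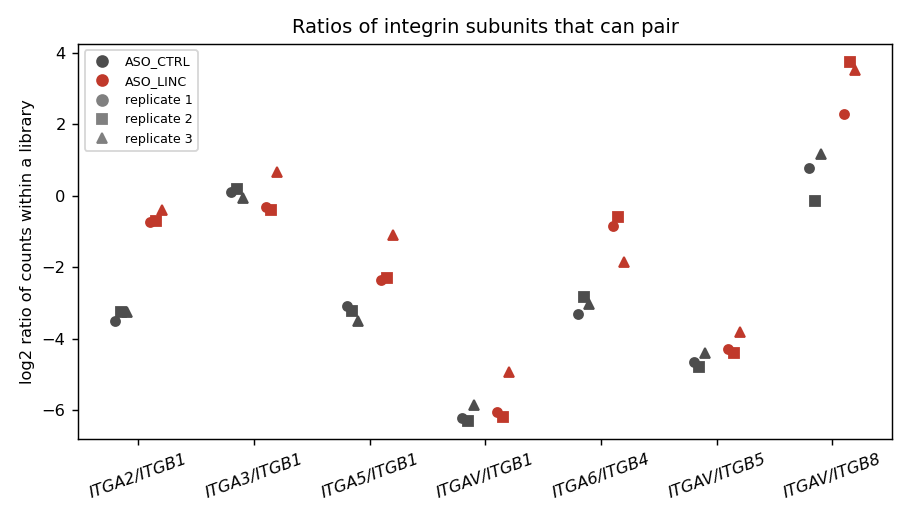
Log2 ratio of the counts of subunits that can pair, in each ASO_CTRL (grey) and ASO_LINC (red) library, with a symbol for each replicate number. ITGA2/ITGB1, ITGA5/ITGB1 and ITGA6/ITGB4 are higher in every ASO_LINC library, and the conditions overlap for ITGA3/ITGB1.

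ASO_LINC replicate 3, the library with the fewest reads, stood apart from the other two in a way that went with GC content. Over tested genes whose transcripts have at most 45% GC (4772 genes), the median log2 change from the mean of ASO_CTRL was 0.15, 0.18 and −0.15 in ASO_LINC replicates 1, 2 and 3, and over genes above 55% GC (3763 genes) it was −0.19, −0.23 and 0.25. ITGA2 (40.1% GC), ITGA6 (42.5%) and ITGB1 (39.5%), whose change was smallest in replicate 3, are of the former kind, and ITGA5 (58%), ITGA3 (60.9%) and ITGB4 (63.6%), whose change was largest in it, are of the latter. ITGAV (38.3%) was highest in replicate 3 in spite of its low GC content. Once the trends of the libraries with GC content and length had been removed, the changes in replicates 1, 2 and 3 were 3.05, 3.14 and 3.02 for ITGA2, 2.05, 2.06 and 1.66 for ITGA6, and 1.59, 1.73 and 1.84 for ITGA5. These remained called, with log2 fold changes of 3.08, 1.93 and 1.72 and adjusted p-values of 4.14e-08, 1.02e-05 and 9.41e-06 from edgeR. ITGB4 came to 0.14, −0.04 and 0.02 in the single libraries, nearer to 0 than before in replicates 2 and 3, and ITGB1 to 0.44, 0.46 and 0.05 with an adjusted p = 0.0834 from edgeR. ITGA3, ITGAV, ITGB5 and ITGB8 had adjusted p-values of 0.0508, 0.121, 0.101 and 0.0159 after this correction and were still not called. The libraries moved further apart for ITGAV, from 0.69, 0.60 and 1.01 to 0.48, 0.37 and 1.20, and for ITGB5, from 0.39, 0.41 and 0.26 to 0.37, 0.43 and 0.10.

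**Figure D5:**
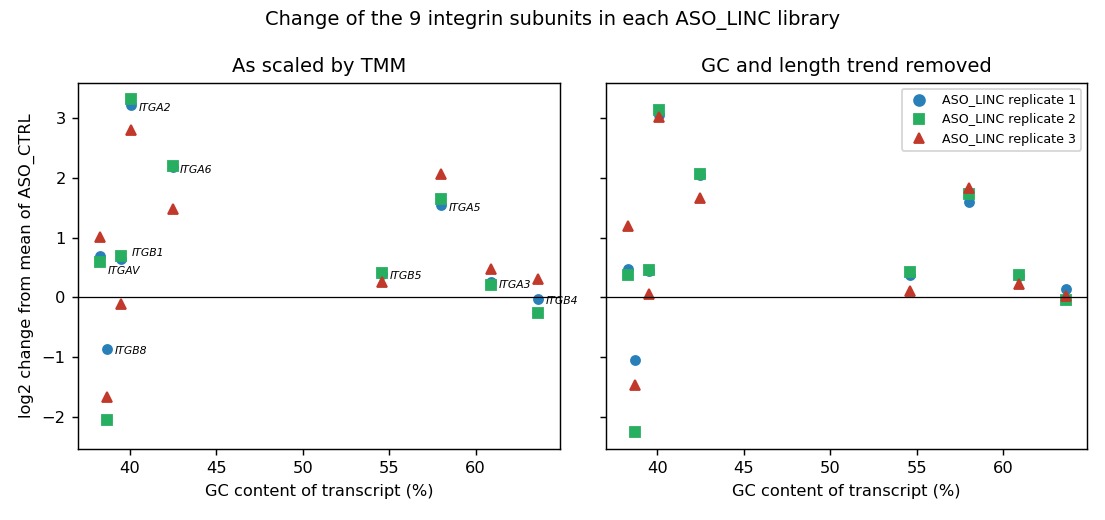
Log2 change of the 9 integrin subunits in each ASO_LINC library from the mean of ASO_CTRL, against the GC content of the transcript in percent, as scaled by TMM (left) and after the trend on GC content and length was removed (right). The 3 libraries lie closer together on the right for ITGA2, ITGA6, ITGA5, ITGA3, ITGB4 and ITGB1, and further apart for ITGAV and ITGB5.

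Of 16 other integrin subunits, 10 had a row and only 4 passed the filter. By edgeR, DESeq2 and limma-voom 0 of these were called in either direction, against 7.54% of all tested genes by edgeR. With 4 genes tested, 0 calls do not show that the rest of the family was unchanged. At an unadjusted p-value below 0.05 in edgeR there were 3, a cut at which the share of all tested genes was not computed. ITGAE, which binds E-cadherin on epithelial cells, was at 65.2 ± 7.48 CPM in ASO_CTRL and 46.5 ± 4.8 CPM in ASO_LINC (SD, n = 3), a log2 fold change of −0.49 (adjusted p = 0.042 from edgeR). ITGB2, the common beta subunit of leukocyte integrins, was at 17.3 ± 1.01 and 23.5 ± 2.77 CPM (SD, n = 3), and ITGAX, one of its partners, at 5.81 ± 1.12 and 9.49 ± 1.12 CPM (SD, n = 3). Their log2 fold changes were 0.44 and 0.69 (adjusted p = 0.0851 and 0.053 from edgeR). ITGA7, a laminin-binding subunit best known from muscle, was at 1.36 ± 0.619 and 1.65 ± 0.707 CPM (SD, n = 3). The median of these 4 log2 fold changes was 0.31.

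Among the collagen and laminin chains that alpha2, alpha3 and alpha6 integrins bind, 18 of 19 had a row and 16 were tested. Of these 4 were called higher and 2 lower, against 4.91% and 2.63% of all tested genes, with a median log2 fold change of 0.23. LAMA4, a laminin alpha chain of vascular and other mesenchymal basement membranes, rose from 41.3 ± 4.34 to 163 ± 32.5 CPM (SD, n = 3), a log2 fold change of 1.98 (adjusted p = 5.91e-05 from edgeR). LAMB3, a laminin beta chain of epithelial basement membranes, was called at 1.63 (adjusted p = 0.00415 from edgeR) but in 1 of 6 fits that left out a library, and LAMA3, an alpha chain of the same membranes, had −0.49 (adjusted p = 0.0232 from edgeR). COL6A2, a chain of collagen VI, also rose, by 1.46 (adjusted p = 0.00288 from edgeR, called in 4 of 6 such fits). LAMB3, LAMA3 and COL6A2 were chosen after their values were seen.

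Of the fibrillar collagen chains tested, COL1A1 and COL3A1 fell and COL5A1 did not pass the test (log2 fold change 0.28, adjusted p = 0.227 from edgeR, named after its values were seen). COL1A1, the main chain of collagen I, fell from 321 ± 61.3 to 125 ± 8.98 CPM (SD, n = 3), a log2 fold change of −1.36 (adjusted p = 0.00033 from edgeR), and COL3A1 fell from 10.8 ± 1.36 to 3.49 ± 1.18 CPM (SD, n = 3, log2 fold change −1.58, adjusted p = 0.00261 from edgeR). The call of COL3A1 was lost without ASO_CTRL replicate 2, ASO_CTRL replicate 3 or ASO_LINC replicate 2, with an adjusted p of at most 0.0175. LAMA5 and COL6A1, abundant chains that were not called, had log2 fold changes of −0.27 and 0.36.

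Of the ligands of the RGD-binding integrins, 14 of 16 had a row and 12 were tested, with 1 higher, 1 lower and a median of 0.15. The shares over all tested genes were 4.91% higher and 2.63% lower, and counts of 1 among 12 genes say little about this list. L1CAM, an adhesion molecule with RGD sequences, rose from 95.5 ± 7.15 to 176 ± 21.8 CPM (SD, n = 3, log2 fold change 0.88, adjusted p = 0.00186 from edgeR) and was called in 3 of 6 fits with a library left out. VTN, vitronectin, fell from 5.48 ± 1.1 to 2.24 ± 0.192 CPM (SD, n = 3, log2 fold change −1.29, adjusted p = 0.00991 from edgeR) and kept its call only without ASO_LINC replicate 3. The matricellular proteins CYR61 and CTGF, with log2 fold changes of 0.42 and 0.20, were not called. FN1, fibronectin, the principal ligand of alpha5beta1 and named here after its values were seen, had 0.10 (adjusted p = 0.805 from edgeR).

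Activators and cytoplasmic linkers, which join beta subunit tails to actin, had 25 of 26 names in the table and 24 tested. Of these 5 were called higher and 1 lower, against 4.91% and 2.63% of all tested genes, and the median was 0.18. The tensins split: TNS3 fell from 109 ± 3.42 to 47.5 ± 2.9 CPM (SD, n = 3, log2 fold change −1.21, adjusted p = 0.000175 from edgeR), whereas TNS4, a tensin without an actin-binding part, rose from 9.49 ± 1.06 to 30.7 ± 5.01 CPM (SD, n = 3, log2 fold change 1.69, adjusted p = 0.00022 from edgeR). Both were called in 6 of 6 fits with a library left out. PXN, the focal adhesion scaffold paxillin, was called at 0.62, and so were FERMT2, a kindlin, at 0.65 and RAP1B, a small GTPase, at 0.66, the latter pair chosen after their values were seen. All 3 kept the call only without ASO_LINC replicate 3. The most abundant linkers that were not called were FLNA, at 516 ± 54.5 and 521 ± 186 CPM, and ACTN4, at 470 ± 6.83 and 613 ± 78 CPM (SD, n = 3).

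Inactivators and endocytic adaptors were all in the table, and of the 5 tested 0 were called by edgeR, with 3 at an unadjusted p-value below 0.05, 1 call by DESeq2, 0 by limma-voom and a median of −0.09. ITGB1BP1, which binds the tail of ITGB1, had a log2 fold change of 0.30 and NUMB, an endocytic adaptor, 0.23. Tetraspanins and hemidesmosome partners, 8 of 8 tested, included 2 higher and 0 lower, with a median of 0.24. COL17A1, the transmembrane collagen that binds ITGB4 in hemidesmosomes, rose from 4.06 ± 1.86 to 21.4 ± 4.22 CPM (SD, n = 3), a log2 fold change of 2.37 (adjusted p = 0.000453 from edgeR) that was called in 6 of 6 fits with a library left out. CD9, a tetraspanin that associates with ITGB1 integrins, rose by 0.57 (adjusted p = 0.00761 from edgeR) and kept its call only without ASO_LINC replicate 3. CD63 and CD81, abundant tetraspanins, had 0.04 and 0.13 and were not called. Across these 5 lists, with 16, 12, 24, 5 and 8 genes tested, 12 genes were called higher and 4 lower. Over all tested genes 4.91% were called higher and 2.63% lower. The lists were chosen with earlier results of these data known, and no set test was run.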

How the data were processed

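The authors reverse transcribed total RNA of H226 cells from oligo-dT for 3 ASO_CTRL and 3 ASO_LINC libraries and aligned the reads with STAR to hg19. They deposited unnormalized read counts for each gene name and library. The counting tool, annotation and strand setting are not given in the sources used here. Groups and replicate numbers came from the sample labels. The table's 4 totals of reads on no gene, 24.8% to 28.1% of each library, were left out.

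Counts were analysed in R 4.3.3 with edgeR 4.0.16: filterByExpr (14660 genes), TMM, quasi-likelihood F-test without a block for the replicate number, Benjamini-Hochberg adjustment over all tested genes, and a call at an adjusted p-value below 0.01 with a log2 fold change beyond 0.5. For a single library, the change is its log2 CPM (prior count 2) less the ASO_CTRL mean. Partner ratios used counts plus 0.5 and an exact two-sided permutation test, and a ratio of ITGB3 to ITGB5 was planned but not made. Intervals on ratios of summed reads are exact 95% intervals for counting error. Coordinates, lengths and GC content were taken from GENCODE 44 lifted to GRCh37, which 13370 names matched directly and 977 through an older symbol. GC content and length were available for 87.2% of the tested genes, and their trend was removed as splines of 5 degrees of freedom. Alternatives were DESeq2 1.42.0, limma-voom (limma 3.58.1), other scalings and filters, robust dispersion, other thresholds, glmTreat, the replicate block, GC and length offsets with and without that block, other pseudocounts and leaving out each library. Ratios with the GC offsets were added after seeing the data. The fit was tested on simulated data for ASO_LINC against ASO_CTRL with 14425 genes: it called 63 of 98 genes given a log2 change of 1 and 100 of 100 given a change of 2, with 1 unchanged gene called.

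The members and the gene lists were chosen with earlier results of these data known. Genes named in the text are all members, the other integrin subunits that were tested, and in each further list the 4 with the smallest p-values among those called and the 2 with the highest CPM among those not called. For 2 genes that this rule names, the result is left out. Other genes are named as chosen after their values were seen. Libraries of a condition differed by more than sampling noise. The chi-square per degree of freedom was 2.62 for ASO_LINC replicates 1 and 2 and 7.68 to 14.8 for the other pairs. Each library was counted as 1 replicate, though this spread does not show that the libraries are independent.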

Additional observations from a re-analysis of the deposited data

How the results depend on the processing

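ITGA2, ITGA6 and ITGA5 were called higher under all 20 alternatives, and ITGA3, ITGB4, ITGAV and ITGB5 under none. ITGB1 was called only without ASO_LINC replicate 3 (0.67). ITGB8, tested under 19, was called lower only at an adjusted p-value below 0.05, where members called lower numbered 1. ITGB4 had no stable sign: its log2 fold change was 0.00 with limma-voom and upper quartile scaling and −0.14 to 0.15 with a library left out. The median of the RGD-binding class, 0.55, was 0.74 with at least 10 counts in every library, where ITGB8 drops out, 0.47 with the GC content and length offsets, and 0.47 to 0.69 with a library left out.

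Calls higher among the ligand, linker and partner genes, 12, came to 5 with glmTreat and 5 to 14 with a library left out, fewest without ASO_CTRL replicate 2 or ASO_LINC replicate 1. Calls lower, 4, came to 7 at an adjusted p-value below 0.05, 2 with glmTreat, 7 with the GC offsets and 2 to 9 with a library left out, most without ASO_LINC replicate 3. Calls over all genes, 1106, came to 2465 at an adjusted p-value below 0.05, 384 with glmTreat, 1736 with the GC offsets, and 359 (without ASO_CTRL replicate 3) to 2616 (without ASO_LINC replicate 3) with a library left out. The causes were not tested.

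The ratio of ITGA3 to ITGB1 differed by −0.09, and by −0.44 to 0.10 with a library left out, being 0.06 and 0.10 without ASO_LINC replicate 1 or 2. With the GC offsets the 7 ratios differed by 2.75 (ITGA2/ITGB1), 0.00 (ITGA3/ITGB1), 1.40 (ITGA5/ITGB1), 0.37 (ITGAV/ITGB1), 1.88 (ITGA6/ITGB4), 0.38 (ITGAV/ITGB5) and 2.28 (ITGAV/ITGB8).

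Libraries with the same replicate number did not deviate together (r = 0.06, −0.15 and −0.18). With 3 libraries per condition these values cannot show whether the numbers pair the libraries, and the labels do not say. With the replicate number as a block 3 members were called, as without it, the ligand, linker and partner genes called higher numbered 7, and all genes called numbered 656. At low counts, as for ITGAV and ITGB8, the depth limits what could be detected.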

Other observations

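Of the tested genes, those nearest to the members that rose, chosen by position alone, were read from the same fit. PELO, whose gene lies 185291 bp from ITGA2 on chromosome 5 and which encodes a ribosome rescue factor, rose from 71 to 123 CPM on average, a log2 fold change of 0.79 with a standard error of 0.14 (adjusted p = 0.0038 from edgeR, n = 3 libraries per condition). MOCS2, 899 bp from ITGA2 on the other side, had 0.19 (adjusted p = 0.405 from edgeR). PDK1, 48913 bp from ITGA6, had 0.85 (adjusted p = 0.0462 from edgeR), and ZNF385A, 3962 bp from ITGA5, had −0.46 (adjusted p = 0.467 from edgeR). On their other sides the nearest tested genes lay far off. DLX2, 324453 bp from ITGA6, had 0.62 (adjusted p = 0.233 from edgeR). VDAC1P5, a pseudogene 383479 bp from ITGA5, had 0.94 (adjusted p = 0.198 from edgeR). PELO was the single one of these 6 genes that was called, against 7.54% of all tested genes, and 6 genes are too few to compare with that share. PELO shares 499 exon bases on the same strand with the integrin gene ITGA1, which did not pass the filter on low counts.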
